A study of Mus musculus with 6 samples.

Results

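The core and linker histone genes were followed through 6 single-cell libraries of sorted mouse brain myeloid cells. The members were the genes whose symbols begin with Hist1h, Hist2h, Hist3h or Hist4h, here called replication-type histones, and 8 histone genes with other symbols, H1f0, H2afz, H2afx, H2afy, H2afv, H2afj, H3f3a and H3f3b, here called variant histones. In all, 75 of the 32285 genes in the files met this rule, 67 replication-type and 8 variant. The cells were live CD45+/CD11b+ cells of whole brain from 3 male C57BL/6J mice aged 89 days, dissociated by cold Dounce homogenization and sorted. Mice 1 and 3 were prepared without inhibitors (DNC-NONE), and mouse 2 was prepared with a cocktail of actinomycin D, triptolide and anisomycin (DNC-INHIB), which block transcription and translation. Cells of every mouse were captured with both the 10X Genomics V3.0 and the V3.1 3′ kit, so each kit held 3 libraries, and the study asked whether the kit version changed microglial profiles. DNC-INHIB was a single animal, so the inhibitors and that animal cannot be told apart.

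The libraries held 29412 barcodes, of which 19725 passed the cell filters, with 6275898 to 18872816 UMIs (unique molecular identifiers, each standing for a captured RNA molecule) in a library. The V3.0 library of mouse 3 stood apart before any result was drawn, since 21.5% of its barcodes passed and its median was 809 UMIs a barcode, against 70.0% to 76.8% passing in the other 5. Clustering without the histone genes gave 18903 microglia-like, 118 border macrophage-like and 287 neutrophil-like cells, hereafter microglia, border macrophages and neutrophils. The 12 microglial markers summed to 26773 to 30443 CPM (UMIs per 1000000 UMIs of the cells of a class in a library) in the microglial sums and to 220 to 1276 CPM in the neutrophil sums. The 12 neutrophil markers summed to 445657 to 502186 CPM in neutrophils, the 10 border macrophage markers to 3157 to 5418 CPM in border macrophages, and the microglial markers to 4089 to 4919 CPM in border macrophages. Barcodes were shared between libraries for 38 of the 19687 distinct passing barcodes, 8 of them between both libraries of the same mouse.

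Histones are the proteins around which DNA is wound. Replication-type core histones (H2A, H2B, H3, H4) and linker histones (H1) are made mainly in S phase from clustered genes without introns, and their messages usually end in a conserved stem-loop in place of a poly(A) tail. Variant histones such as H3.3 and H2A.Z are made throughout the cell cycle from genes outside the clusters with polyadenylated messages, and they replace replication-type histones in chromatin of resting cells. Adult microglia, border macrophages and mature neutrophils are largely outside the cell cycle, and the 10X kits prime reverse transcription on poly(A).

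The annotation placed 54 of the 67 replication-type genes on chromosome 13 and 10 on chromosome 3, and 62 of the 67 had a single exon. A stem-loop site was searched for as GG, 3 pyrimidines and T, a loop of 4 bases, and the reverse complement of those 6 bases. It stood in the transcript models of 46 of the 67 replication-type genes, 1 of the 8 variant genes (H2afx) and 168 of 55375 other genes (0.303%). The sites below are shown because the annotated messages differ in how far they run past them. They lie in exons of their genes, are given 5′ to 3′ on the gene's strand in GRCm38 (GENCODE vM21), and carry the paired stem in capitals. The Hist3h2a site is at chr11:58955167-58955192 (+), Hist1h1c at chr13:23739507-23739532 (+), Hist1h4d at chr13:23581945-23581970 (+), Hist1h2ac at chr13:23683472-23683497 (-), Hist1h4h at chr13:23531453-23531478 (+), Hist2h2ac at chr3:96220413-96220438 (-) and H2afx at chr9:44335235-44335260 (+).
Hist3h2a: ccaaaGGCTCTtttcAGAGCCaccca
Hist1h1c: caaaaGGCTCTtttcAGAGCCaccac
Hist1h4d: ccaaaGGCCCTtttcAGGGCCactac
Hist1h2ac: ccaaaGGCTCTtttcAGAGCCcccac
Hist1h4h: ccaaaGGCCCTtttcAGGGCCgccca
Hist2h2ac: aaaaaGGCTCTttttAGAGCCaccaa
H2afx: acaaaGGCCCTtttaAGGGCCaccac
The annotated message ran 1643 bases past the site in Hist3h2a, 840 in Hist1h1c, 770 in Hist1h4d, 2010 in Hist1h2ac and 822 in H2afx. It ran 46 bases past it in Hist1h4h and 57 in Hist2h2ac. The letters of the Hist3h2a site also stood in Hist1h1e (chr13:23621777-23621802, -), which ran 1153 bases past it.

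The replication-type UMIs lay mostly on genes whose annotated messages run well past the stem-loop. In microglia, the 23 genes whose models run at least 100 bases past it held 73.3% of the replication-type UMIs, the 23 that end within 100 bases held 7.98%, and the 21 with no stem-loop held 18.7%. The shares were 64.5%, 18.8% and 16.7% in border macrophages and 65.1%, 9.65% and 25.2% in neutrophils. Of the 23 long models, 17 reached a mean of 1 CPM in microglia, with a median of 3.35 CPM. Of the 23 short models 6 did, with a median of 0.231 CPM, and of the 21 without a stem-loop 3 did, with a median of 0.288 CPM. The polyadenylation signal AATAAA stood within 50 bases of an annotated end in 11, 1 and 3 genes of these groups. The 100-base limit was set after values had been seen, and the genes share reads within their families. Reads are counted within annotated exons, so a model that ends early cannot collect reads from a longer message. For these reasons the figures are a description.

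**Figure D1:**
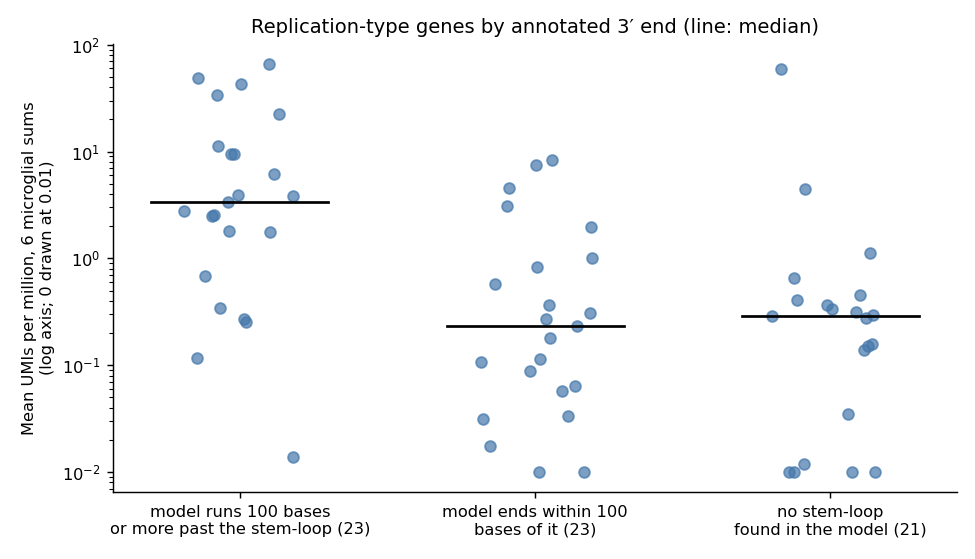
Mean CPM of each of the 67 replication-type histone genes over the 6 microglial sums (log axis, genes at 0 drawn at 0.01 CPM), grouped by how the annotated message ends. Points are genes and lines are medians: 3.35 CPM for models past the stem-loop, 0.231 for those ending at it and 0.288 for those without one.

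In the 300 bases around their start sites (250 before to 50 after, RefSeq, GRCm38.p6), the replication-type genes shared promoter letters. CCAAT, read on both strands, stood in 53 of the 62 matched genes (85.5%) against 40.9% of 26956 other promoters. TATAAA stood in 35 (56.5%) against 15.6%, and the octamer ATTTGCAT in 14 (22.6%) against 1.92%. Of the 7 matched variant genes, 5 had CCAAT, 1 TATAAA and 1 the octamer. A match describes the letters and not a bound factor.

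Variant histones gave most of the captured histone message in all 3 cell classes. The kits capture message through poly(A), so these levels say nothing of histone messages without it. In microglia, replication-type genes summed to 326, 241 and 356 CPM in the V3.0 libraries of mice 1, 2 and 3, and to 505, 358 and 441 CPM in the V3.1 libraries. The variant genes summed to 2203, 2186 and 2203 CPM with V3.0 and 2422, 2397 and 2290 CPM with V3.1. Every V3.1 library was above every V3.0 library in both sums, though the highest V3.0 and the lowest V3.1 replication-type sums were nearly equal, and mouse 2 had the lowest replication-type sum with either kit. The replication-type sums of the kits overlapped with cells of at least 500 genes (358 CPM in V3.0 of mouse 3 against 349 in V3.1 of mouse 2) and met at 360.0 and 359.9 CPM without the highest Scrublet scores. The replication-type mean was 371 ± 91.7 CPM and the variant mean 2283 ± 104 CPM (SD, n = 6 libraries), so replication-type genes gave 13.9% ± 2.60 of histone UMIs.

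Border macrophages and neutrophils had higher variant sums than microglia. Border macrophages held 342, 145 and 162 replication-type CPM with V3.0 and 409, 248 and 344 with V3.1, from 138 UMIs in all, beside 2799 to 3765 variant CPM, and the replication-type share was 7.59% ± 2.75 (SD, n = 6). Neutrophils held 255, 144 and 344 replication-type CPM with V3.0 and 774, 284 and 288 with V3.1, from 622 UMIs, beside 3681 to 5102 variant CPM, and the share was 7.62% ± 4.13. The V3.1 library of mouse 1 lay far above the other 5 neutrophil sums, and the ranges of the 3 classes overlapped for replication-type but not, between microglia and either other class, for variant genes. These sums were not tested, since the members were chosen with results of these data known.

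**Figure D2:**
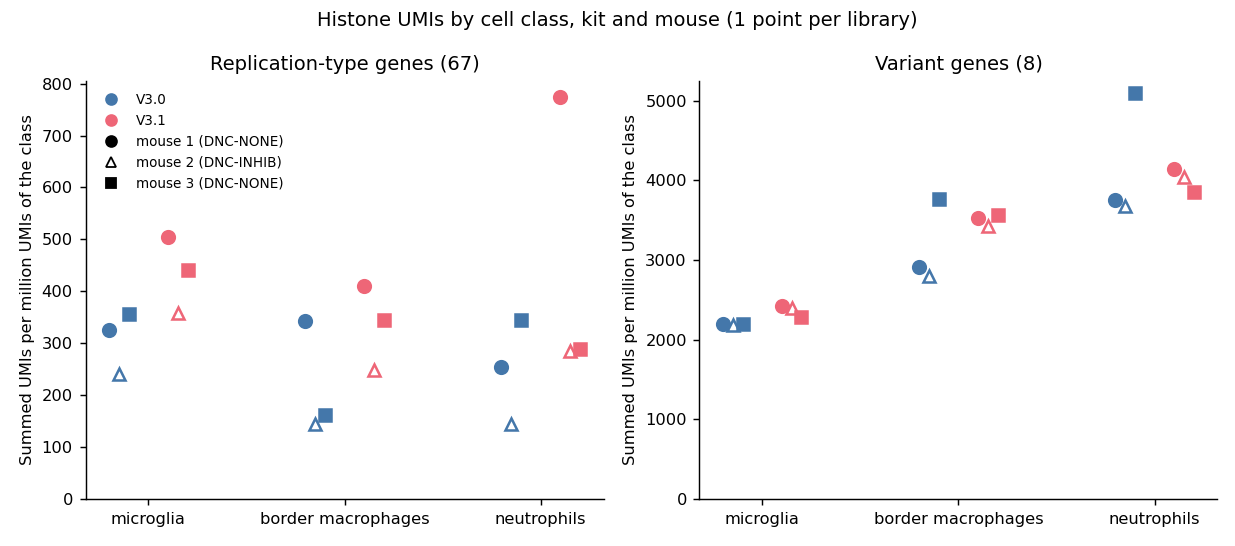
Summed UMIs of replication-type and of variant histones as CPM in each class, with a point per library, colour for the kit and marker shape for the mouse (open triangle, mouse 2, DNC-INHIB). Variant sums in microglia lie at 2186 to 2422 CPM and replication-type sums at 241 to 505 CPM, and the neutrophil library at 774 CPM is V3.1 of mouse 1.

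Among replication-type genes, a few carried most of the message. The kits count a molecule once near its 3′ end whatever its length, so levels of different genes are set side by side as CPM. In microglia, 6 of the 67 genes had no UMI and 41 were under 1 CPM, while Hist3h2a, Hist1h2bc, Hist1h1e, Hist1h1c, Hist1h4d and Hist1h2be held 73.4% of the 25158 UMIs. Hist3h2a (H2A, ENSMUSG00000078851, chromosome 11, 58954685 to 58956830) led with 65.5 ± 7.76 CPM (SD, n = 6), before the H2B gene Hist1h2bc (chromosome 13, 23684199 to 23692908) with 58.8 ± 14.5. The linker histone genes Hist1h1e and Hist1h1c followed with 48.4 ± 27.2 and 42.5 ± 4.68 CPM, the H4 gene Hist1h4d with 33.8 ± 14.99 and the H2B gene Hist1h2be with 22.5 ± 6.08. Neighbours in this order overlapped across libraries. By family, H2A took 28.2%, H2B 26.0%, H1 25.6%, H4 17.5% and H3 2.71% of microglial replication-type UMIs.

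The order changed with the cell class. In neutrophils, Hist1h1e led with 158 of 622 UMIs (25.4%), Hist1h2bc held 17.2%, Hist1h4i, an H4 gene, held 10.9% and Hist3h2a 2.25%, and H1 genes together held 39.4%. In border macrophages, no gene exceeded 22 UMIs, Hist1h1e led with 15.9% of 138, and 42 of the 67 genes had no UMI.

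The variant genes kept a fixed order in microglia. H3f3b, a gene for H3.3, had 1053 ± 112 CPM (SD, n = 6), and H3f3a, the other H3.3 gene, had 506 ± 44.2. H2afz (H2A.Z) had 372 ± 26.5, H2afy (macroH2A) 154 ± 7.78, H2afj (H2A.J) 86.5 ± 6.96, H2afv (a second H2A.Z gene) 66.4 ± 6.14, the linker histone H1f0 30.4 ± 4.63 and H2afx, the H2A.X of DNA damage signalling, 15.9 ± 1.295. No neighbours in this order overlapped over the 6 libraries. Of the 91-base windows in the last 400 bases, 21.4% in H3f3a and 27.3% in H2afz also occurred in other annotated genes, where reads may be lost or credited to another gene.

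In microglia, 8 replication-type histones were higher with V3.1 than with V3.0, and no variant histone passed the test. Of 34 members that passed the low-count filter (26 replication-type, 8 variant), 8 were called higher and none lower in edgeR's quasi-likelihood test (adjusted p under 0.05 and a log2 fold change beyond 0.58), against 3.11% of the 12015 genes tested called either way and 1.58% called higher. All 8 were replication-type, and 2 of the 8 variants had an unadjusted p under 0.05. DESeq2 called 6 replication-type members and 0 variants. Both tests took the 6 libraries as separate samples, without the mouse as a block. The median log2 fold change was 0.71 over the 26 replication-type members and 0.13 over the 8 variants, beside -0.0001 over all genes tested. V3.1 exceeded V3.0 in all 3 mice for 16 of the 26 replication-type members and 4 of the 8 variants, where 25.1% of all tested genes did so.

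The linker histone gene Hist1h1e had 34.3, 14.3 and 37.7 CPM with V3.0 and 91.5, 45.2 and 67.1 CPM with V3.1 in mice 1, 2 and 3. Every V3.1 value was above every V3.0 value, and mouse 2 was lowest with either kit. It rose by 1.35 on the log2 scale (SE 0.28, edgeR adjusted p = 0.00879). All 91-base windows at its end also occur in Gm11398 or Hist1h2be, which overlap it on the same strand in the annotation used here. Reads from Hist1h1e may therefore be lost or credited to these genes. The other H1 genes did not pass: Hist1h1c stood at 42.7, 34.8 and 47.9 against 44.5, 39.6 and 45.4 CPM, with overlapping kits, and Hist1h1d changed by 1.08 (edgeR adjusted p = 0.19).

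Among H2A genes, Hist1h2ae had 6.78, 4.13 and 4.95 CPM with V3.0 and 19.6, 9.76 and 11.3 with V3.1, without overlap. Its rise was 1.33 (SE 0.26, edgeR adjusted p = 0.00599). Hist2h2ac, whose annotated message ends near its stem-loop, had 4.99, 2.85 and 4.33 against 14.8, 9.84 and 8.11 CPM, also without overlap, a rise of 1.45 (SE 0.25, edgeR adjusted p = 0.00332). Hist1h2ab rose by 1.65 (SE 0.46, edgeR adjusted p = 0.0323) at 0.285 to 1.89 CPM, and Hist2h2aa1 did not pass at 1.45 (edgeR adjusted p = 0.0526). Hist3h2a, the most abundant replication-type message, stood at 59.6, 74.8 and 71.5 against 54.3, 63.4 and 69.5 CPM, with overlapping kits (log2 fold change -0.11, SE 0.11).

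Among H2B genes, Hist1h2bc had 42.8, 47.3 and 49.8 CPM with V3.0 and 66.2, 80.3 and 66.6 with V3.1. The kits did not overlap, and the rise of 0.64 (SE 0.096, edgeR adjusted p = 0.00136) had the smallest adjusted p of the members. Hist1h2be, next in level, changed by 0.24 and was not called. Of the H3 genes, Hist1h3e rose by 1.81 (SE 0.45, edgeR adjusted p = 0.0182) from 0.498 to 0.935 CPM with V3.0 to 1.76 to 4.403 CPM with V3.1, and 71.0% of its end windows occur in other genes.

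Among H4 genes, Hist1h4h had 4.29, 2.28 and 2.47 CPM with V3.0 and 19.4, 15.4 and 6.72 with V3.1, without overlap. Its rise of 2.11 (SE 0.36, edgeR adjusted p = 0.00305) was the largest fold change of the members tested, and 49.0% of its end windows occur in other genes. Hist1h4c had 3.90, 1.78 and 4.64 against 13.6, 6.45 and 6.24 CPM, again without overlap, a rise of 1.48 (SE 0.35, edgeR adjusted p = 0.0154). Hist1h4d, the most abundant H4 gene, was higher with V3.1 in every mouse, at 32.6, 9.47 and 32.8 against 52.6, 29.0 and 46.1 CPM, but the kits overlapped and it did not pass (0.90, edgeR adjusted p = 0.0858), nor did Hist1h4i (0.26).

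The variants moved little between kits. H3f3b had 999.7, 905 and 998.8 CPM with V3.0 and 1231, 1099.7 and 1081 with V3.1, without overlap, a difference of 0.25 (SE 0.070, edgeR adjusted p = 0.0317) that lay under the fold threshold. H3f3a had 507, 586 and 494 against 451, 508 and 493 CPM, lower with V3.1 in every mouse, with overlapping kits (-0.12). The other 6 variants had log2 fold changes between -0.14 (H2afx) and 0.22 (H2afv) and none was called.

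**Figure D3:**
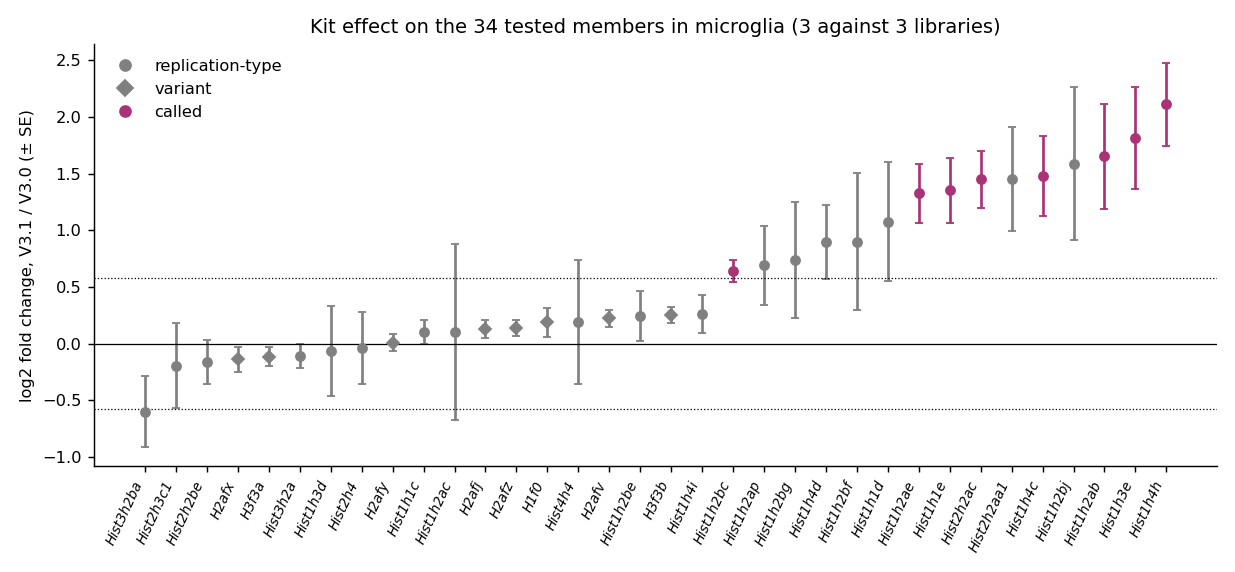
Log2 fold change of V3.1 against V3.0 in microglia for the 34 members tested, with SE bars and dotted lines at 0.58 in either direction. The 8 called members are replication-type genes from 0.64 (Hist1h2bc) to 2.11 (Hist1h4h), and the 8 variants lie between -0.14 and 0.25.

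With the mouse as a block in the same edgeR test, 13 members were called, 12 higher and 1 lower (Hist3h2ba, an H2B gene named after its values were seen). Without mouse 2 the count was 3 (Hist1h1e, Hist1h2ae and Hist1h4d), and without the V3.0 library of mouse 3 it was 8. The share of all genes called in these settings is not given, so the counts show only how the calls depend on the setting.

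In microglia, 14 replication-type histones were lower in the DNC-INHIB mouse than in the DNC-NONE mice, and no variant histone passed the test. With both libraries of a mouse summed, 49 members passed the filter (41 replication-type, 8 variant) and 14 were called, all replication-type and all lower, against 0.775% of the 13163 genes tested called either way and 0.441% called lower. The median log2 fold change was -0.83 over the 41 replication-type members, 35 of them below 0, -0.0080 over the 8 variants, of which 1 had an unadjusted p under 0.05, and -0.0057 over all genes tested. In single libraries, both DNC-INHIB libraries lay below all 4 others for 10 of 26 replication-type members and 1 of 8 variants, against 7.75% of genes tested. Taken kit by kit, mouse 2 lay below both DNC-NONE mice with either kit for 16 of the 26 and 1 of the 8, against 18.2%. With 1 mouse against 2, the test takes the DNC-INHIB mouse to vary as the others do, so its p-values do not cover variation among inhibitor-treated animals.

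Among H2A genes, Hist1h2ac had 15.6, 0.804 and 17.9 CPM in mice 1, 2 and 3, from 350, 21 and 354 UMIs. Mouse 2 was far below both others with either kit, at 0.427 CPM against 17.5 and 17.3 with V3.0 and at 1.24 CPM against 13.1 and 18.05 with V3.1. The log2 fold change was -4.36 (SE 0.25, edgeR adjusted p = 1.02e-55), the largest of the members called. Hist2h2aa1 fell by 1.56 (SE 0.32, edgeR adjusted p = 0.000373), Hist1h2ae by 0.73 (SE 0.19, edgeR adjusted p = 0.0104) and Hist1h2ap by 0.87 (SE 0.25, edgeR adjusted p = 0.047). Hist3h2a was not lower, at 57.4, 69.5 and 69.8 CPM, with mouse 2 between the others. The H2B gene Hist1h2bc, next to it in level, also had mouse 2 between the others, at 52.8, 62.6 and 63.9 CPM.

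Among linker histones, Hist1h1e had 58.7, 28.6 and 62.3 CPM in mice 1, 2 and 3 and Hist1h1d 5.36, 1.301 and 4.81. Mouse 2 was lowest for both, with log2 fold changes of -1.07 (SE 0.11, edgeR adjusted p = 4.41e-17) and -1.95 (SE 0.31, edgeR adjusted p = 1.03e-07). Hist1h1c had 43.5, 37.0 and 45.8 CPM, and its difference of -0.26 did not pass (edgeR adjusted p = 0.482).

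Among H4 genes, Hist1h4d had 41.1, 18.5 and 44.0 CPM and Hist4h4 5.54, 1.07 and 5.01, lowest in mouse 2. They fell by 1.19 (SE 0.12, edgeR adjusted p = 3.85e-19) and 2.28 (SE 0.32, edgeR adjusted p = 5.4e-10), and Hist1h4c by 0.82 (SE 0.23, edgeR adjusted p = 0.0282). Hist1h4i (-0.24) and Hist1h4h (-0.0003) were not called. Hist1h4h stood at 10.7, 8.34 and 6.03 CPM, with mouse 2 between the others.

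Among H2B genes, Hist1h2be had 26.6, 14.8 and 26.6 CPM in mice 1, 2 and 3. It fell by 0.83 (SE 0.13, edgeR adjusted p = 7.46e-08), Hist1h2bf by 2.54 (SE 0.46, edgeR adjusted p = 1.46e-05), Hist1h2bg by 1.76 (SE 0.44, edgeR adjusted p = 0.00781) and Hist2h2bb by 2.06 (SE 0.57, edgeR adjusted p = 0.026). Hist1h3d, at 3.44, 1.45 and 3.60 CPM, was the H3 gene called, with a fall of 1.26 (SE 0.33, edgeR adjusted p = 0.0149). The variant H1f0 had 32.9, 24.8 and 34.6 CPM and was lowest in mouse 2, but its difference of -0.43 (SE 0.11, edgeR adjusted p = 0.0177) lay under the fold threshold, and the other 7 variants ranged from -0.11 (H3f3b) to 0.19 (H3f3a).

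**Figure D4:**
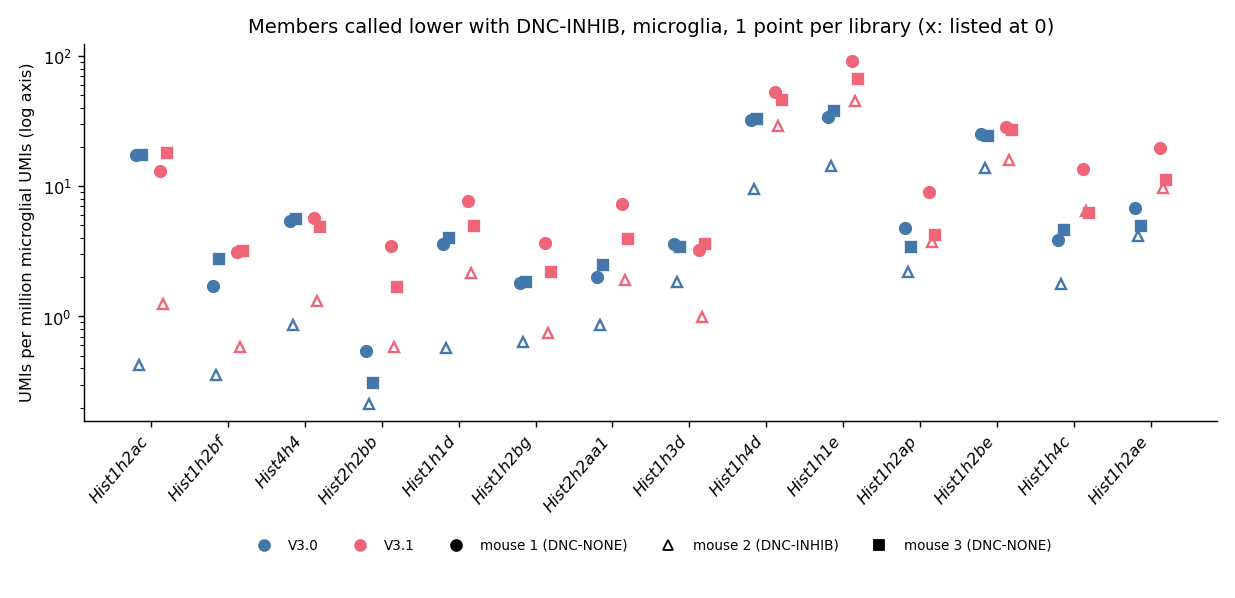
CPM in each microglial library (log axis) of the 14 replication-type members called lower in the DNC-INHIB mouse, with colour for the kit and marker shape for the mouse. The open triangles of mouse 2 are lowest for Hist1h2ac, at 0.427 and 1.24 CPM against 13.1 to 18.05 CPM in the other 4 libraries.

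The 14 members stayed below 0 against either DNC-NONE mouse alone, with log2 ratios from -4.48 to -0.50 against mouse 3 and from -4.28 to -0.84 against mouse 1. They were chosen as lower against these same mice, so the ratios are no separate support. The count was 7 with V3.0 libraries alone, 8 with V3.1 libraries alone, 8 with library totals in place of TMM factors and 4 with DESeq2. These counts stand without the share of all genes called in each setting and are not read as results about the members. Hist1h1e, Hist1h2ae and Hist1h4c were called in both the kit and the inhibitor comparison, which use the same 6 libraries. The lists the study used for module scores hold 7 of these histone genes. Of these, 2 were called between kits (Hist1h1e, Hist1h2bc), where 3.11% of all genes tested were called. Between inhibitor groups 4 were called (Hist1h1d, Hist1h1e, Hist1h2ac, Hist2h2aa1), against 0.775% of all genes tested. In a separate experiment with more mice a group, the paper found no gene that differed significantly between Dounce preparations without and with inhibitors.

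Border macrophages had more H2afj and H2afz message than microglia with either scaling of the counts. Border macrophages, the macrophages of meninges, perivascular space and choroid plexus, were compared with microglia over sums of both libraries of a mouse, with the mouse as a block, and 15 members passed the filter (7 replication-type, 8 variant). With TMM factors, which set the bulk of genes level between samples, 6 were called, against 23.3% of 7681 genes tested (13.6% higher, 9.65% lower). H2afj had 92.6, 82.8 and 83.5 CPM in microglia of mice 1, 2 and 3 and 194, 163 and 311 CPM in border macrophages, and H2afz had 354, 389 and 366 against 528, 641 and 848 CPM. All border macrophage values were above all microglial values for both genes, which rose by 1.70 (SE 0.19, edgeR adjusted p = 2.57e-10) and 1.27 (SE 0.17, edgeR adjusted p = 1.57e-08). H3f3a (1.00), H2afv (0.86) and H3f3b (0.80) were also called higher with TMM factors, but at 0.54, 0.41 and 0.35 they were not called with library totals, which called 2 members higher (H2afj, H2afz) against 8.66% of genes and 2 lower (Hist1h2bc, Hist3h2a) against 26.5%. Hist3h2a was lower, at 23.3, 28.7 and 9.42 CPM from 13 UMIs against 57.4, 69.5 and 69.8 CPM (-1.05, SE 0.39, edgeR adjusted p = 0.0424), and the call was lost without any 1 of the mice and with DESeq2. The median of all genes was -0.049 with TMM factors and -0.51 with library totals. The microglial markers stood at 4089 to 4919 CPM in these border macrophages, and their part in the differences was not tested.

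In neutrophils, the short-lived granulocytes of blood and marrow, most genes differed from microglia and the scaling set many directions. The median log2 fold change of all genes was -0.25 with TMM factors and -1.75 with library totals, and the 12 neutrophil markers, S100a8 among them, summed to 445657 to 502186 CPM in neutrophils. With TMM factors 12 of the 15 members were called, 11 higher and 1 lower (Hist3h2a), against 66.6% of genes tested (29.7% higher, 36.8% lower). With library totals 5 were called higher and 5 lower, against 11.8% and 74.8%.

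Both scalings called H3f3a, H2afj, H2afz, Hist1h4i and Hist1h1e higher and Hist3h2a lower in neutrophils. H3f3a had 483, 550 and 493 CPM in microglia and 1982, 1897 and 1928 CPM in neutrophils, far apart, with log2 fold changes of 3.41 (SE 0.16, edgeR adjusted p = 3.41e-24) with TMM factors and 1.90 (SE 0.14) with library totals. H2afj had 280, 277 and 312 CPM in neutrophils (3.22, SE 0.12, and 1.71 with totals), and H2afz had 578, 846 and 801 CPM (2.46 and 0.96), both above all microglial values. Hist1h4i had 8.63, 8.57 and 11.9 CPM in microglia and 52.5, 27.1 and 37.0 in neutrophils (3.51 and 2.00). Hist1h1e had 121, 84.6 and 61.6 CPM in neutrophils, where only mouse 3 fell within the microglial range of 28.6 to 62.3 (2.38 and 0.88). Of its 158 neutrophil UMIs, 42 came from 8 cells with cycling genes. The remaining neutrophils held 69.3 CPM of Hist1h1e against 48.1 CPM in microglia outside the cycle. Without cycling cells it was called with TMM factors (2.03), and library totals were not tried there. Hist3h2a was at 6.18, 6.77 and 12.3 CPM, below all microglial values (-1.53, SE 0.36, edgeR adjusted p = 0.000197, and -3.03).

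H3f3b (1.16 and -0.34), H2afv (1.29 and -0.22), Hist1h1c (1.26 and -0.25) and H2afy (0.65 and -0.85) were called higher in neutrophils with TMM factors and turned to negative values with library totals, where only H2afy was called lower. H2afx (2.11 and 0.60) and Hist1h2bc (1.53 and 0.029) were called with TMM factors alone. Hist1h2be (0.43 and -1.08), Hist1h4d (0.30 and -1.21) and the variant H1f0 (-0.78 and -2.28) were not called with TMM factors, and library totals called each lower.

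The H2afx call rested on few cells. Of its 42 neutrophil UMIs, 32 came from 8 cells with cycling genes. The remaining neutrophils held 5.98 CPM, below the 15.2 CPM of microglia outside the cycle. These CPM are scaled by totals, while the call was made with TMM factors, so the order holds for library totals only. Without cycling cells 11 members were called with TMM factors, a count given without the share of all genes. H2afx then no longer passed the low-count filter, and H2afy (0.54) fell under the fold threshold. H1f0, at -0.78 and not called with all cells, was called lower (-1.19, SE 0.50, edgeR adjusted p = 0.0318).

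The H3.3 genes stood in opposite order in the 2 classes. H3f3b had 939, 717 and 912 CPM in neutrophils, below its 1098, 995 and 1068 CPM in microglia, while H3f3a exceeded it in neutrophils of every mouse. In microglia the order of the 2 H3.3 genes was the opposite, with H3f3b above H3f3a in all 6 libraries.

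**Figure D5:**
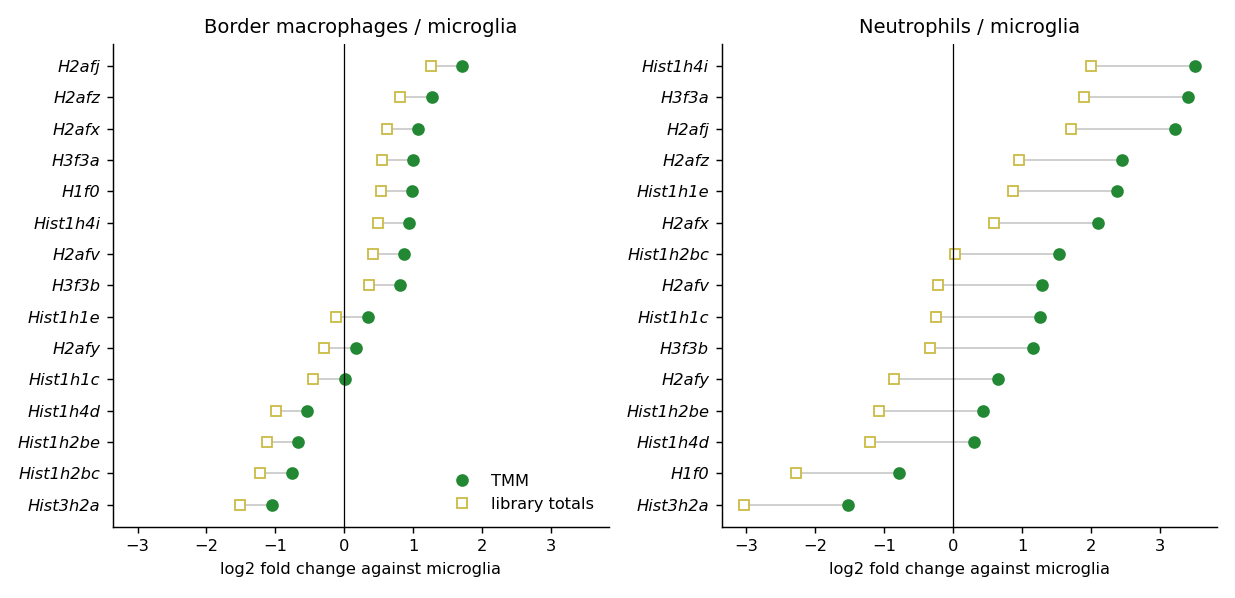
Log2 fold change against microglia of the 15 members tested in border macrophages and neutrophils, with TMM factors (filled) and with library totals (open squares). In neutrophils H3f3a moves from 3.41 to 1.90 and stays positive, while H3f3b, H2afv, Hist1h1c and H2afy turn from called higher to negative, and Hist1h2be and Hist1h4d, not called with TMM factors, also turn negative.

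Whether the kit difference itself varied with the class was tested as an interaction in edgeR on 12 members. None was called in either class, against 0.00% of 5797 genes for border macrophages and 0.0173% for neutrophils, and 1 and 2 members had an unadjusted p under 0.05. DESeq2 called 0. The V3.0 border macrophage sum of mouse 3, with 5 cells, was left out of the fit.

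Single cells were set to the same depth by thinning each to 2000 UMIs, which left out 761 microglia below that depth. A replication-type UMI was then seen in 48.2% of 18142 microglia (exact 95% interval 47.4% to 48.9%), 35.6% of 118 border macrophages (27.0% to 44.9%) and 39.7% of 287 neutrophils (34.02% to 45.6%). By library, microglial shares were 44.0%, 37.5% and 47.0% with V3.0 and 57.5%, 50.5% and 53.5% with V3.1, without overlap between kits. A variant UMI was seen in 98.1%, 99.2% and 100% of the cells of the 3 classes. Without thinning, the replication-type shares were 65.4%, 53.4% and 67.6%. In neutrophils the 12 neutrophil markers summed to 445657 to 502186 CPM, which left fewer of the 2000 UMIs for other genes. The thinned shares are therefore not at equal depth for the rest of the genes.

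Single genes differed in these shares between classes. H3f3a was seen in 62.4% of microglia, 75.4% of border macrophages and 98.6% of neutrophils, and Hist3h2a in 12.3%, 4.24% and 1.05%. Genes of other cell types were also seen, and how far free RNA or doublets gave these UMIs was not tested. S100a8, a neutrophil gene, was seen in 50.6% of microglia, P2ry12, a microglial gene, in 5.57% of neutrophils, and the neuronal Snap25 in 0.10% of microglia. The Hist3h2a share in neutrophils lay under that of P2ry12 there and is not read as expression. The intervals cover counting error only.

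Cells with UMIs of at least 3 of 12 cycling genes (among them Mki67 and Top2a) held more histone message when summed, though not in every library. Such cells numbered 10 of 18903 microglia (0.0529%), 8 of 287 neutrophils and 0 of 118 border macrophages. Replication-type genes summed to 1730 CPM in the cycling microglia and 368 CPM in the others, and variant genes to 6354 and 2282 CPM. Without the 2 cycling microglia richest in replication-type UMIs (37 and 20 of 92) the first sum was 861 CPM, and in the V3.0 library of mouse 3 the cycling cell was lower, at 216 against 357 CPM. The 10 cycling microglia held 0.366% of microglial replication-type UMIs. H2afz stood at 2651 against 369 CPM, H2afx at 583 against 15.2, Hist1h2ae at 188 against 9.41 and the linker histone gene Hist1h1b, named after its values were seen, at 169 against 0.367.

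In neutrophils, 8 cycling cells held 26.4% of the replication-type UMIs, at 3177 CPM against 274 CPM in the others. By library the cycling sums were higher in 3 and lower in 2, at 89.95 against 146 CPM in V3.0 of mouse 2 and 265 against 289 CPM in V3.1 of mouse 3. Hist1h1b had 20 UMIs in those 8 cells and 0 in the remaining neutrophils. A count of 0 leaves room for an expected count of up to about 3 UMIs there (95% bound). Of the 164 replication-type UMIs in these 8 cells, 126 came from a single cell of the V3.1 library of mouse 1, with 11110 UMIs, 29 replication-type genes, all 12 cycling genes, 701 UMIs of Camp and 742 of Ngp, genes of immature neutrophil granules, and none of Cxcr2, a receptor of mature neutrophils. Without that cell the cycling sum was 938 CPM. Without cycling cells the neutrophil sums were 192, 146 and 255 CPM with V3.0 and 422, 284 and 289 CPM with V3.1, and the cycling markers summed to 6.11 to 545 CPM over the full neutrophil sums. These cells were picked by a count of cycling genes, which does not single out S phase, so no test was made.

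None of the genes listed for making and handling histone messages and proteins was called in microglia. Of 14 genes for histone mRNA transcription, 3′ processing and decay, 13 were tested in edgeR and 0 called between kits, with 1 at an unadjusted p under 0.05, and likewise between inhibitor groups. Of the 23 histone chaperones and exchange factors, 0 of 22 were called between kits, with 7 at an unadjusted p under 0.05, and 0 of 23 between inhibitor groups, with 0 at that level. DESeq2 called 0 of either list in both comparisons. In border macrophages 2 of 19 chaperones were called, both higher, against 13.6% of all genes called higher, and 0 of 11 mRNA genes, with 1 at an unadjusted p under 0.05. The chaperone share lay below that background and is no result about the list. The chaperones Nap1l1 (1.95, SE 0.21) and Npm1 (1.41, SE 0.13) were higher in edgeR, and at 1.498 and 0.96 they were also called with library totals.

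In neutrophils, 4 of 19 chaperones and exchange factors were called higher and 7 lower with TMM factors, against 29.7% and 36.8% of all genes tested, and the median over the list was -0.59 beside -0.25 over all genes. This share lay near or below the background and is no result about the list. Znhit1, a subunit of the complex that deposits H2A.Z, was higher with both scalings (2.64 and 1.14 with library totals). Npm1 (-1.93 and -3.43), the chaperone Set (-1.30 and -2.80) and the helicase Ruvbl1 (-3.06 and -4.55) were lower with both. Of 11 mRNA genes, 1 was called higher and 2 lower with TMM factors, against the same 29.7% and 36.8% of all genes. These shares lay below the background and are no result about the list. Npat, which activates histone genes (-1.92 and -3.42), and Eri1, which trims and degrades histone messages (-1.21 and -2.70), were lower with both scalings. Library totals called 74.8% of all genes lower. Lsm10, a subunit of the particle that cuts histone messages, was called higher with TMM factors (1.19) and turned to -0.32 with library totals.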

How the data were processed

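Per the labels and the study's methods, the authors made 6 libraries from sorted CD45+/CD11b+ cells, pooled them on a single sequencing flow cell, and counted UMIs with Cell Ranger 5.0.0 on mm10. The deposited matrices hold UMI counts, whole numbers that were not normalized, for 32285 genes in 29412 barcodes. Such counting can lose reads shared between near-identical genes or credit them to another gene, which bears on this family.

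A barcode was kept as a cell (19725 in all) if 1000 to 4000 genes were seen, its UMIs did not exceed 12000 and mitochondrial genes gave no more than 15% of them. They were clustered in scanpy 1.11.5 (leidenalg 0.10.2, Python 3.11.15) on 2000 variable genes and 20 components, with the histone members, their regulators and the cycling genes left out, and clusters were named from markers, at least 3 per name. Monocyte (220), T or NK (33) and mixed (164) cells were left out, and for doublets, an alternative dropped the top 4% of each library by Scrublet score.

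Counts were summed per class and library, or per class and mouse, with at least 10 cells a sum in the test of kit by class. edgeR 4.0.16 in R 4.3.3 (TMM factors, filterByExpr, quasi-likelihood test) was fitted across all genes, with Benjamini-Hochberg adjustment over all genes tested, and a call needed an adjusted p under 0.05 and a log2 fold change beyond 0.58 in size. DESeq2 1.42.0 was an alternative. The steps were tested on simulated counts. Replicate numbers are mice: both libraries of a mouse come from the same animal, and their deviations over 500 variable genes correlated at 0.386, 0.471 and 0.225 in mice 1, 2 and 3. The main test between kits took the 6 libraries as separate samples, without the mouse as a block. Its p-values therefore leave out the pairing of libraries from the same 3 animals.

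Stem-loops were searched for in GENCODE vM21 transcripts and motifs in RefSeq promoters of GRCm38.p6, which matched 75 and 69 members. The annotation release differs from that of the counts, so overlaps are a description. Named members were the 8 variants, the 7 histones of the study's score lists, the 10 most abundant replication-type genes in microglia and every member called. The members and lists were chosen with earlier results of these data known. Intervals on shares of cells are Clopper-Pearson at 95%. Alternatives were the scaling, the filter, the tool, the block, the cells kept and leaving out each mouse.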

Additional observations from a re-analysis of the deposited data

Results flagged for a closer look

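With 6 libraries a group, a value was singled out where the gap from the highest or lowest library to its neighbour divided by the group's range, exceeded Dixon's critical value at 95%. Of 39 groups of values checked, 4 met this, and chance gives about 1 in 20. In microglia, Hist1h2ap stood at 9.12 CPM in the V3.1 library of mouse 1 and at 2.21 to 4.75 CPM in the other 5.

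The other 3 were in neutrophils. Replication-type genes summed to 774 CPM in the V3.1 library of mouse 1 against 144 to 344 CPM in the others, and their share of histone UMIs was 15.7% there against 3.77% to 6.96%. A single cell with 126 replication-type UMIs and UMIs of all 12 cycling genes gave 47.2% of that library's neutrophil replication-type UMIs. Variant genes summed to 5102 CPM in the V3.0 library of mouse 3, the library with the fewest neutrophils (24), of which 4 were cycling, against 3681 to 4146 CPM in the others. The part of cell number and of cycling cells in these values was not tested.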

How the results depend on the processing

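Between kits, 8 members were called, and the number was 13 with the mouse as a replicate block, 15 with no filter on low counts, 4 with equal numbers of microglia a library, and 3 to 8 with each mouse left out. Between inhibitor groups, 14 were called, and the number was 8 with library totals (a scaling added, for all comparisons, after seeing the data), 4 with DESeq2, 7 with V3.0 libraries alone, 8 with V3.1 libraries alone, 7 with all 6 libraries and the kit as a covariate (also added then) and 9 without the highest Scrublet scores. Fewer samples or cells enter the single-kit and equal-cell settings, and the cause of the other changes was not tested. The share of all genes called in these settings is not given, so the counts are not results about the members. Leaving out mouse 1 or 3 left 1 mouse a group and gave values with no test.

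Without the block, 5 members were called in border macrophages and 12 in neutrophils, also without the share of all genes. With library totals the neutrophil fold changes of H2afv (-0.22), H3f3b (-0.34), Hist1h1c (-0.25) and H2afy (-0.85) turned negative, and so did Hist1h2be (-1.08) and Hist1h4d (-1.21), which had not been called, as the shift of all genes built into that scaling would give. At 1000 UMIs a cell and unthinned, the share of cells with a replication-type UMI was 29.8% and 65.4% in microglia, 21.2% and 53.4% in border macrophages and 25.4% and 67.6% in neutrophils. The share with a variant UMI was 88.4% and 99.3% in microglia, and at 1000 UMIs 91.5% and 96.9% in the others. Replication-type CPM was 996 in cycling microglia with at least 2 cycling genes and 4024 in cycling neutrophils with at least 4. Of the single-gene values recomputed for called members, 387 kept direction and side of the threshold, 75 kept direction only, and 4 turned.

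Border macrophages rest on few cells, with 138 replication-type UMIs in 118 cells, and a mouse's 2 libraries are not separate animals.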
